A study of Saccharomyces cerevisiae with 7 samples.

Results

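The transfer RNA (tRNA) genes of the budding yeast nuclear genome and the DNA on each side of them were measured here. The R64 annotation lists 275 nuclear tRNA genes among 6431 nuclear genes, and 265 of them lie on the 15 chromosomes studied. The other 10 are on chromosome IX, which was not analysed here. The rule for members uses annotated type and chromosome and no measured value. Of the 265 genes, 264 had a value over the gene and 262 also had values in both flanks. The gene without a value was YNCC0008W on chromosome III, around which the tracks hold no window.

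tRNA genes are transcribed by RNA polymerase III (RNAPIII) from promoter elements inside the gene, called box A and box B. These are bound by TFIIIC, which brings TFIIIB to the DNA just before the start, and the genes are very active and largely free of nucleosomes. RNA polymerase II (RNAPII) makes messenger RNA and many noncoding RNAs, including those from the nucleosome-depleted regions between genes. tRNA genes usually sit in such regions beside protein-coding open reading frames (ORFs). A few are known to stop the spread of silent chromatin.

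RNAPII occupancy was measured by chromatin immunoprecipitation and sequencing (ChIP-seq) in log-phase W303 cells grown at 30°C in YEP with 2% glucose. The antibody recognizes the C-terminal domain of the largest RNAPII subunit, and the crosslinked chromatin was cut with micrococcal nuclease. There were 3 genotypes, with no other treatment: wild type (WT), rrp6Δ, without the Rrp6 nuclease that works with the exosome in the nucleus, and rtt109Δ, without the enzyme that acetylates lysine 56 of histone H3. Each genotype had 2 IP libraries, 1 input library served all, and the deposited data hold 1 track of IP/input ratios per genotype.

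Because replicates were already combined in these tracks, differences between genotypes have no replicate error, and no test or p-value is given. Depth is unknown. The labels were checked at the deleted genes. The mean ratio over RTT109 was 1.36 in WT and 0.0178 in rtt109Δ, and that over RRP6 was 1.01 in WT and 0.118 in rrp6Δ. Each track has a median window of 1, so a ratio of 1 is the level of a typical window and a change common to the whole genome would not be seen. Both mutants are compared with the same WT track. Intervals given with medians are 95% order-statistic intervals over genes, which treat genes as independent and contain no replicate error.

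The genes are short beside the windows of the tracks, which are 100 bp long and spaced 50 bp apart. Annotated lengths ran from 71 to 133 bp with a median of 73 bp. For each gene the ratios of all windows with a centre inside it were averaged, which was 1 window for 111 genes, 2 for 147 and 3 for 6, so every gene value includes some flanking DNA. Flanks were the windows centered 100 to 300 bp before the start (upstream) and after the end (downstream). Many tRNA genes are near-identical copies, and how reads shared between copies were placed is not given in the sources used here, so values of individual genes with copies are uncertain. The same holds for flanks that contain repeated DNA. Windows were missing more often near these genes than elsewhere. Within 300 bp of a tRNA gene 5.12% of window positions had no value, against 1.60% over the 15 chromosomes, and 84 of the 265 genes (31.7%) had at least 1 such gap.

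In WT, the RNAPII ratio was high around tRNA genes and lower over them. The median ratio was 2.06 in the upstream flank (interval 1.96 to 2.18), 1.08 over the gene (1.04 to 1.14) and 1.43 in the downstream flank (1.37 to 1.53). Upstream flanks ran from 0.629 to 6.72, genes from 0.553 to 2.65 and downstream flanks from 0.442 to 6.40, so the ranges overlapped widely. The upstream median lay above 91.3% of all runs of 4 adjacent windows on the 15 chromosomes. For the downstream median this share was 75.8%, and the gene median lay above 55.3% of pairs of adjacent windows. Thus the ratio over the gene itself was near that of a typical window, whereas the DNA before it was among the parts of the genome with high ratios. The tracks hold no separate input values, so the part of the input in these levels, and in differences between genotypes, was not tested.

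Most individual genes had this dip. The ratio over the gene was below the mean of its flanks in 238 of 262 genes in WT, and below each flank in 180. It was lower than the flanks by more than 1.3-fold, the limit the study used for RNAPII ratios, in 198 genes (75.6%), and the median log2 of gene over flanks was -0.81 (-0.89 to -0.69). Over the whole genome, 31.2% of window pairs lay this far below their flanks in the WT track. The upstream flank exceeded the downstream flank in 191 of 262 genes. Averaged over all genes, the ratio was 2.65 at 250 bp before the start, 2.16 at 50 bp before it, 1.10 at 50 bp inside it and 2.35 at 150 bp after it.

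**Figure D1:**
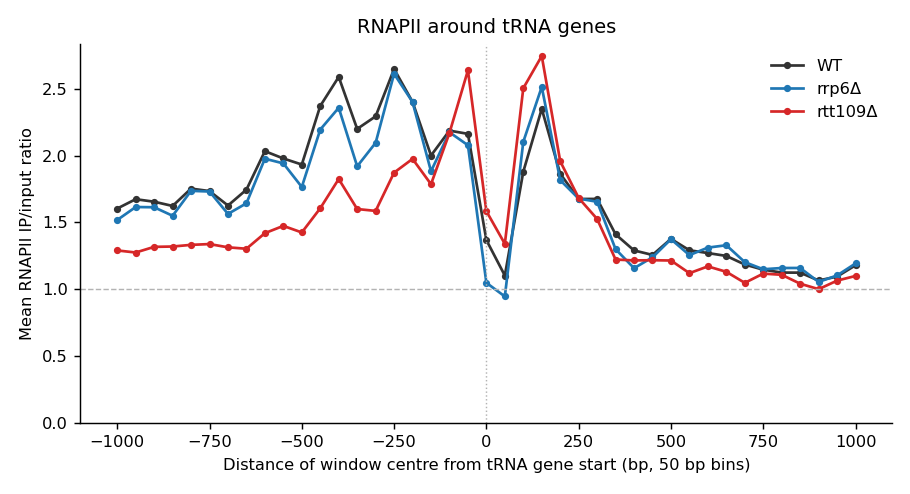
Mean RNAPII IP/input ratio of all tRNA genes with a window, in 50 bp bins by distance of the window centre from the annotated gene start, with the direction of transcription to the right; 1 line per genotype, dashed line at a ratio of 1. At 50 bp inside the gene the means were 0.946 in rrp6Δ, 1.10 in WT and 1.34 in rtt109Δ, with peaks on each side. The rtt109Δ line was the lowest at 250 bp before the start, at 1.87, and the highest at 50 bp before it, at 2.64.

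The 5 genes with the highest WT ratios carry only systematic names, and 4 of them rested on 1 window. YNCL0036C on chromosome XII (687859 to 687932, R64) had a ratio of 2.15 in rrp6Δ, 2.65 in WT and 2.47 in rtt109Δ. It stood within DNA of high ratio, with an upstream flank at 5.82 in WT, and had a missing window within 300 bp. YNCK0016W on chromosome XI had 3.005 in rrp6Δ, 2.32 in WT and 3.31 in rtt109Δ, and its upstream flank was at 5.17 in WT. YNCB0005C, YNCG0003C and YNCC0010C followed with WT ratios of 2.16, 2.05 and 1.91. Of these, YNCB0005C and YNCG0003C had a higher ratio over the gene than in either flank, but YNCB0005C has another tRNA gene within 300 bp. YNCG0003C had 2.05 over the gene, 1.69 upstream and 0.868 downstream in WT.

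At the other end, YNCL0007W on chromosome XII (374355 to 374427) had a ratio of 0.586 in rrp6Δ, 0.553 in WT and 0.864 in rtt109Δ. Its WT flanks were at 2.58 and 2.74. IMT1, 1 of the initiator methionine tRNA genes, had 0.690 in rrp6Δ, 0.608 in WT and 0.606 in rtt109Δ. Its upstream flank was the highest of all members, at 5.75 in rrp6Δ, 6.72 in WT and 5.35 in rtt109Δ. In each genotype the gene was thus far below the flank before it. YNCB0016W, YNCD0013C and YNCP0023W, the other genes among the lowest 5, had WT ratios of 0.579, 0.589 and 0.597. All 5 of the lowest genes rested on 1 window.

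After IMT1, the highest WT upstream flanks were those of SUP8, a tyrosine tRNA gene, at 6.64 and of YNCM0021C at 6.43. These flanks were chosen after their values were seen. The SUP8 flank was at 5.10 in rrp6Δ and 3.18 in rtt109Δ, and that of YNCM0021C at 5.11 and 4.16. In all 3 cases rtt109Δ had the lowest value of the genotypes, and all 3 genes had a missing window within 300 bp. The upstream flank rested on 3 windows at IMT1 and on 2 each at SUP8 and YNCM0021C. Whether repeated DNA shaped these flank values was not tested.

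**Figure D2:**
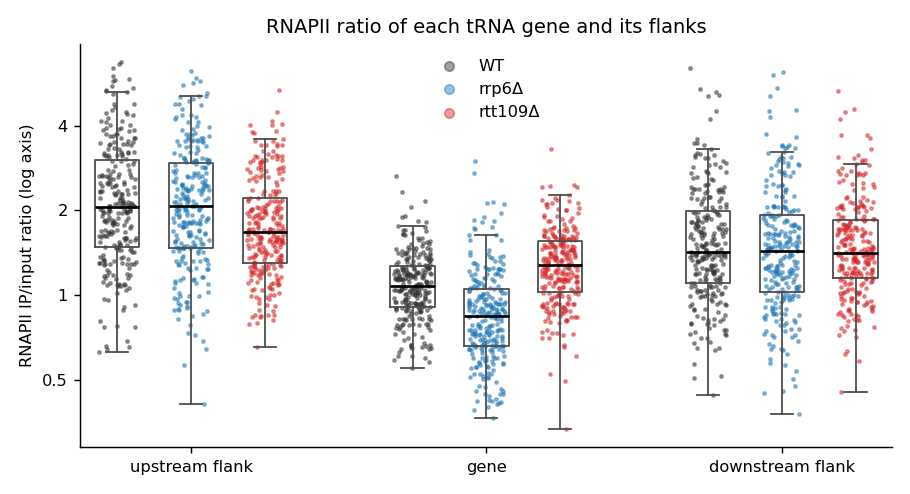
RNAPII IP/input ratio (log axis) of every tRNA gene and of its upstream and downstream flanks; each point is 1 gene, boxes give median and quartiles, whiskers reach the farthest gene within 1.5 times the box, and colors are genotypes. Medians over the gene were 0.841 in rrp6Δ, 1.08 in WT and 1.28 in rtt109Δ, and those of the upstream flank 2.07, 2.06 and 1.68.

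In rtt109Δ, the RNAPII ratio was higher over tRNA genes and lower upstream of them than in WT. The median ratio over the gene was 1.28 in rtt109Δ (interval 1.21 to 1.35) against 1.08 in WT, and 219 of 264 genes were higher in rtt109Δ. The median log2 difference was 0.23 (0.20 to 0.29). By more than 1.3-fold, 75 genes (28.4%) were higher and 7 lower. Among all pairs of adjacent windows 15.7% were higher and 17.7% lower by this limit, so tRNA genes were higher more often, and lower less often, than a typical place in the genome. In the range of WT ratios that holds the middle 50% of the genes, 0.909 to 1.26, the median difference of all window pairs was -0.05 and 8.32% were higher, against 0.22 and 24.2% of the 132 tRNA genes in that range. With tracks divided by their means in place of their medians, the tRNA gene median was 0.32 and 44.3% were higher. The genome-wide share on that scale is not given here.

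The upstream flank went the other way. Its median was 2.06 in WT and 1.68 in rtt109Δ, with a median log2 difference of -0.29 (-0.34 to -0.23), and 203 of 264 flanks were lower. By more than 1.3-fold 104 upstream flanks were lower and 8 higher, whereas among all runs of 4 windows 16% were lower and 13.6% higher. However, this decrease was of the size seen at other DNA with a high WT ratio. In runs of 4 windows with WT ratios from 1.48 to 3.01, the middle 50% of the upstream flanks, the median log2 difference was -0.30 and 38.9% were lower, against -0.32 and 40.2% of the 132 flanks in that range.

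Downstream flanks had medians of 1.43 in WT and 1.42 in rtt109Δ. The median log2 difference was -0.01 (-0.06 to 0.05), with 38 of 262 lower and 20 higher by more than 1.3-fold. Dividing the tracks by their means turned this to 0.08, with 9.54% lower and 12.2% higher, so no direction can be given. Here the genome at a like level was lower. Runs with WT ratios from 1.10 to 1.99 had a median of -0.18 and 23.5% were lower, against 0.01 and 10.8% of the 130 downstream flanks in that range. Within genes the upstream difference lay below the downstream one in 195 of 262, with a median gap of -0.25 on the log2 scale (-0.34 to -0.17). The mean of both flanks was lower by more than 1.3-fold at 63 genes (24.0%) and higher at 2, beside 16% and 13.6% of all runs of 4 windows. At WT ratios from 1.40 to 2.51, however, 34.8% of such runs were lower, with a median of -0.27, against 20.8% of the 130 flank means in that range, with a median of -0.18. At a like WT level the flank means were thus lower less often than other DNA, although each of them spans more windows than a run.

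The dip over the gene was shallower in rtt109Δ than in WT. The median log2 of gene over flanks was -0.35 (-0.48 to -0.28), and 129 of 262 genes (49.2%) lay more than 1.3-fold below their flanks, where 26.7% of window pairs did so genome-wide in that track. Relative to its own flanks, a gene was higher in rtt109Δ than in WT by a median of 0.44 (0.38 to 0.48). No genome-wide value of this change is given here, so it cannot be called particular to tRNA genes. The switch of sign lay close to the gene. Per window, the median log2 difference was -0.46 at 450 bp before the start, -0.20 at 200 bp and -0.03 at 100 bp, but 0.31 at 50 bp before the start. It was highest, 0.43, at 100 bp after the start, and 0.03 at 250 bp after it.

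**Figure D3:**
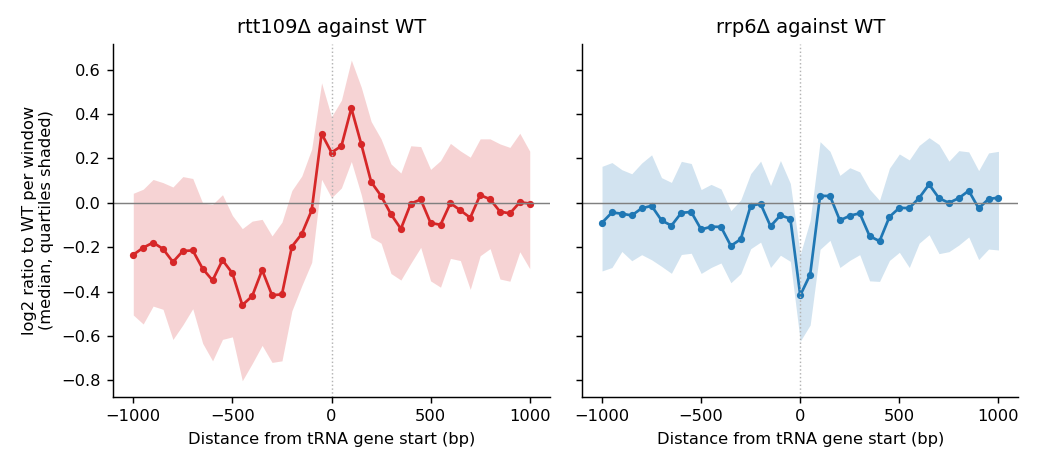
Median log2 ratio of rtt109Δ (left) and rrp6Δ (right) to WT per window, by distance from the tRNA gene start, with quartiles over genes shaded. In rtt109Δ the median went from -0.46 at 450 bp before the start to 0.43 at 100 bp after it, and in rrp6Δ it was lowest at the start itself, at -0.42.

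The largest increase over a gene in rtt109Δ was at SUF6, a glycine tRNA gene on chromosome XIV known from frameshift suppressors. Its ratio was 0.942 in rrp6Δ, 0.858 in WT and 1.62 in rtt109Δ, a log2 difference of 0.91, while its upstream flank was at 1.96 in WT and 1.72 in rtt109Δ. This value depended on which windows were used, since the window nearest to its midpoint alone gave 0.32, inside the limit. EMT3, which encodes a methionine tRNA used within proteins, had 0.748 in rrp6Δ, 0.678 in WT and 1.19 in rtt109Δ. YNCH0001W, YNCG0032W and YNCD0012W completed the top 5 with log2 differences of 0.85, 0.84 and 0.82. YNCH0001W and YNCD0012W each rested on 1 window, and YNCG0032W had a missing window within 300 bp. YNCD0012W also has another tRNA gene within 300 bp.

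EMT4, another of the methionine genes, had the largest decrease. It was at 0.879 in rrp6Δ, 1.39 in WT and 0.666 in rtt109Δ, a log2 difference of -1.06 in rtt109Δ. YNCB0016W went from 0.579 in WT to 0.335 in rtt109Δ, the lowest gene value in that track. It lies directly beside YNCB0015W, 11 bp away, which was at 1.22 in WT and 1.60 in rtt109Δ. The YNCB0016W value rested on 1 window. Windows of 100 bp can cover parts of both genes there, so these values cannot be assigned to each gene alone. YNCC0001C, YNCG0025C and YNCP0004C had log2 differences of -0.67, -0.45 and -0.42. Of these 5 genes with the largest decreases, 4 had a missing window within 300 bp, against 31.7% of all members. The part of missing windows in these values was not tested.

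In rrp6Δ, the RNAPII ratio was lower over tRNA genes, and the flanks were close to WT. The median ratio over the gene was 0.841 (interval 0.774 to 0.885) against 1.08 in WT, and 228 of 264 genes were lower. The median log2 difference was -0.38 (-0.42 to -0.32). By more than 1.3-fold 131 genes (49.6%) were lower and 2 higher, whereas 10.4% of all window pairs were lower and 8.42% higher. At WT ratios from 0.909 to 1.26 the median of all window pairs was -0.01 and 9.25% were lower, against -0.41 and 53.8% of the 132 tRNA genes. The gene median lay above 35.0% of window pairs in rrp6Δ, compared with 55.3% in WT and 72.3% in rtt109Δ.

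The upstream flank had a median of 2.07 in rrp6Δ, and the log2 difference from WT was -0.03 (-0.06 to -0.005), with 16 of 264 lower and 10 higher by more than 1.3-fold. Downstream flanks differed by -0.06 (-0.10 to -0.04), with 17 of 262 lower and 6 higher. Genome-wide 5.98% of runs of 4 windows were lower and 5.14% higher, so the flanks stood near the background. The log2 difference from WT of the upstream flank minus that of the downstream flank had a median of 0.03 (-0.03 to 0.07), and it was below 0 in 123 of 262 genes. The dip was deeper than in WT. Genes lay below their flanks by a median log2 of -1.14 (-1.23 to -1.04), and 225 of 262 (85.9%) did so by more than 1.3-fold, against 32.2% of window pairs of that track. Per window, the difference from WT was largest over the gene, with medians of -0.42 at the start and -0.32 at 50 bp inside it, against -0.07 at 50 bp before the start and 0.03 at 100 bp after it. Smaller decreases lay farther out, with medians of -0.19 at 350 bp and -0.16 at 300 bp before the start, and -0.15 at 350 bp and -0.17 at 400 bp after it.

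The largest decrease in rrp6Δ was at YNCP0022W on chromosome XVI, where the ratio was 0.446 in rrp6Δ, 0.936 in WT and 0.990 in rtt109Δ. Its upstream flank was at 1.46 in WT and 1.62 in rrp6Δ. YNCK0011C, at 0.523 in rrp6Δ, 1.05 in WT and 0.933 in rtt109Δ, had flanks between 0.899 and 1.05 in these 2 strains, WT and rrp6Δ, and no dip in WT. A dip thus appeared there only in the rrp6Δ track of the 3. YNCP0004C, YNCG0017W and YNCF0014C had log2 differences of -1.04, -1.02 and -0.97.

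Only 2 genes were higher in rrp6Δ by more than 1.3-fold, YNCG0032W and YNCG0003C, both on chromosome VII. YNCG0032W was at 1.14 in rrp6Δ, 0.768 in WT and 1.38 in rtt109Δ. It was thus also among the 5 largest increases in rtt109Δ. With the nearest window alone its difference in rrp6Δ was 0.37, inside the limit. YNCG0003C was at 2.72 in rrp6Δ, 2.05 in WT and 2.18 in rtt109Δ. YNCK0016W, YNCJ0017C and YNCP0007C were higher by 0.37, 0.31 and 0.29 on the log2 scale, inside the limit. For YNCK0016W and YNCP0007C the nearest window alone gave the other sign, -0.12 and -0.16.

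**Figure D4:**
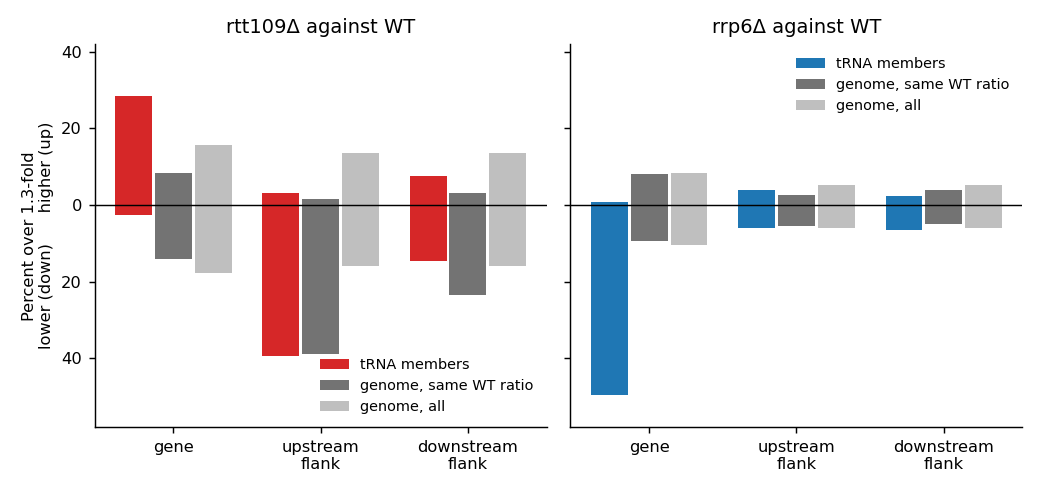
Percent of tRNA genes and flanks more than 1.3-fold higher (above 0) or lower (below 0) than WT in rtt109Δ (left) and rrp6Δ (right), beside the same share of genome windows whose WT ratio lies in the middle 50% of the members (dark gray) and of all genome windows (light gray), in pairs for genes and runs of 4 for flanks. In rrp6Δ 49.6% of genes were lower against 10.4% of all pairs, and in rtt109Δ 28.4% were higher against 15.7%.

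The genotypes took the order rrp6Δ, WT, rtt109Δ from low to high over 188 of 264 tRNA genes (71.2%), and over 22.2% of all window pairs. Both comparisons use the same WT track, so they are not independent of each other. The medians of each mutant had the same direction on all 15 chromosomes studied, but the order itself was not counted by chromosome. Chromosome medians of the log2 difference over genes ran from 0.12 on chromosome XVI to 0.40 on chromosome I in rtt109Δ, and from -0.55 on chromosome III to -0.17 on chromosome VIII in rrp6Δ. Chromosome I holds only 4 of the genes and chromosome VII, with most, 36.

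Genes could be grouped by amino acid only where the gene symbol itself is known to name it, which held for 44 of the 265 genes. A group may hold more than 1 anticodon, so its genes need not be copies of the same tRNA. The 8 tyrosine genes, SUP2 to SUP8 and SUP11, give nonsense suppressors when their anticodon is mutated. They had WT ratios from 1.02 to 1.64 with a median of 1.07, and medians of 0.832 in rrp6Δ and 1.23 in rtt109Δ. Every one of them was lower than WT in rrp6Δ, from -0.69 to -0.24, and higher in rtt109Δ, from 0.06 to 0.49. Their upstream flanks differed far more than the genes, from 0.655 at SUP11 and 0.684 at SUP6 to 5.25 at SUP5 and 6.64 at SUP8 in WT. Thus the ratio over near-identical genes was similar in spite of very different surroundings, but reads shared between the copies would also give similar values, and this was not tested.

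The 9 glycine genes named SUF had the lowest rrp6Δ ratios of the larger families, with a median of 0.598 against 0.858 in WT. By more than 1.3-fold 7 of 9 were lower, against 110 of the 220 genes whose symbol names no amino acid. Among all window pairs 10.4% were lower. In rtt109Δ the glycine median was 1.31 and all 9 genes were higher than WT, by 0.10 to 0.91. The 7 proline genes had medians of 0.828 in rrp6Δ, 1.05 in WT and 1.36 in rtt109Δ. Again all of them were lower in rrp6Δ, from -0.55 to -0.22, and higher in rtt109Δ, from 0.15 to 0.77.

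Methionine genes varied more. The 4 initiator genes, whose tRNA starts translation, had WT ratios of 0.608 at IMT1, 0.816 at IMT2, 1.52 at IMT3 and 0.704 at IMT4. In rrp6Δ these were 0.690, 0.463, 1.18 and 0.705, and in rtt109Δ 0.606, 0.736, 2.06 and 0.859. Only IMT3 of the 4 followed the order rrp6Δ, WT, rtt109Δ, and IMT2 was lower than WT in both mutants. The 5 elongator genes, EMT1 to EMT5, spread from -1.06 to 0.82 in rtt109Δ, the widest spread of the families shown.

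**Figure D5:**
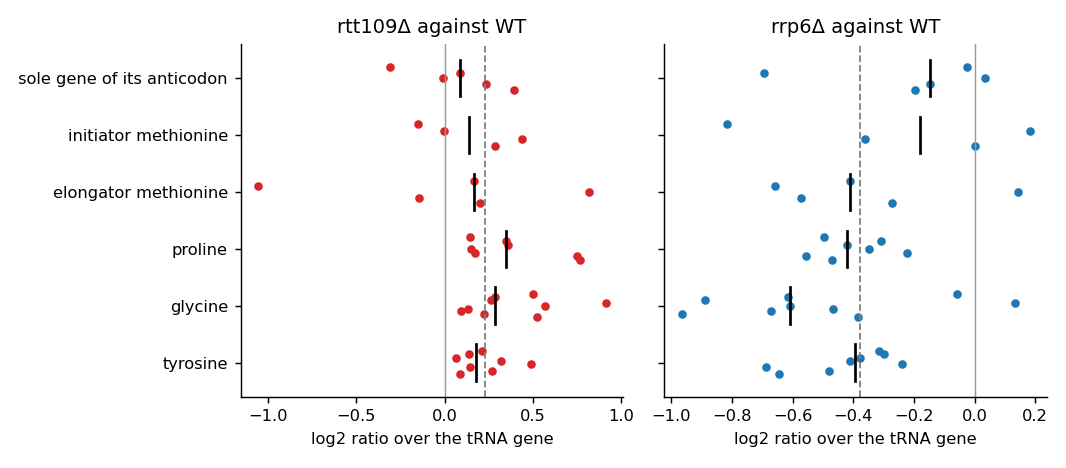
Log2 ratio over the tRNA gene of rtt109Δ (left) and rrp6Δ (right) to WT for genes whose symbol names the tRNA; each point is 1 gene, black bars are family medians, the dashed line is the median of all tRNA genes and the gray line is 0. The 8 tyrosine, 9 glycine and 7 proline genes lay above 0 in rtt109Δ.

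Among 5 genes known by their symbol to be alone in carrying their anticodon, reads cannot be shared with a copy of the same anticodon. The annotation gives no anticodon, so other such genes may have been missed. SUP61, an essential serine tRNA gene, was at 1.24 in rrp6Δ, 1.41 in WT and 1.86 in rtt109Δ. HSX1, an arginine tRNA gene, was at 1.32, 1.47 and 1.73 in that order. These followed the order of the whole class, as did TRR4. TRR4, also for arginine, was at 0.541 in rrp6Δ, 0.875 in WT and 0.932 in rtt109Δ, and was the only one of the 5 lower in rrp6Δ by more than 1.3-fold. CDC65, for glutamine, was at 1.37 in rrp6Δ, 1.39 in WT and 1.12 in rtt109Δ. It was the only one of the 5 clearly lower in rtt109Δ than in WT, at -0.31, and the log2 difference of its upstream flank there was -0.84. The median log2 difference of these 5 genes was 0.09 in rtt109Δ and -0.15 in rrp6Δ, nearer to 0 than the medians of all genes, 0.23 and -0.38.

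TRT2, a threonine tRNA gene and the remaining one of the 5, lies 439 bp from the start of STE6, the gene of the a-factor exporter, and is known to limit repressive chromatin there. Its ratio was 1.64 in rrp6Δ, 1.60 in WT and 1.59 in rtt109Δ. Its log2 differences from WT, 0.03 in rrp6Δ and -0.01 in rtt109Δ, were among the smaller ones of the genes named here, but the nearest window alone gave 0.21 in rtt109Δ. YNCC0014W on chromosome III (295484 to 295556), the tRNA gene nearest to the silent mating type gene HMRA1, at 1162 bp, was at 0.928 in rrp6Δ, 1.10 in WT and 1.36 in rtt109Δ. This region is known for a tRNA gene that blocks the spread of silencing. Its flanks were high in WT, at 3.06 upstream and 3.15 downstream, and lower in rtt109Δ, at 2.46 and 2.04. SUP4, a tyrosine gene on chromosome X (542956 to 543044) long used as a model RNAPIII gene, was at 1.23 in rrp6Δ, 1.64 in WT and 2.04 in rtt109Δ. It had no dip in WT, where its flanks were at 1.18 upstream and 1.89 downstream, with a mean of 1.53.

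The direction was the same in short and long genes. The 182 genes of 71 to 74 bp with a value had medians of 0.779 in rrp6Δ, 1.06 in WT and 1.23 in rtt109Δ. The 43 genes of 96 to 133 bp had 0.919, 1.18 and 1.49 in that order. Longer genes hold more windows, and the genes with 1 window had a median log2 difference of -0.43 in rrp6Δ, against -0.32 for those with 2. In rtt109Δ these medians were 0.22 and 0.25.

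It was also the same with and without close neighbors. The 115 genes with a value and no annotated gene within 300 bp had median log2 differences of 0.20 in rtt109Δ and -0.38 in rrp6Δ, and the 149 others 0.27 and -0.38. Upstream flanks differed more by neighbor. In rtt109Δ the median upstream difference was -0.33 where no ORF lay within 500 bp upstream (200 genes) and -0.13 where an ORF faced the tRNA gene with its start (42 genes). The 266 ORFs within 500 bp of a tRNA gene stood near all ORFs. In rtt109Δ 23 were lower and 20 higher by more than 1.3-fold, with a median of -0.04, while of all 5781 ORFs 9.57% were lower and 8.75% higher. In rrp6Δ 6 were lower and none higher, against 1.82% and 0.709% of all ORFs.

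Of the other genes that RNAPIII transcribes, 4 were measured here, and these differed from WT in the same direction as most tRNA genes. SCR1, the RNA of the signal recognition particle, was at 0.702 in rrp6Δ, 1.05 in WT and 1.42 in rtt109Δ. RPR1, the RNA of RNase P, which trims tRNA 5′ ends, was at 0.570, 0.820 and 1.04 in that order. Both had the order rrp6Δ, WT, rtt109Δ, as did SNR6 and SNR52. SNR6, the U6 spliceosomal RNA, was at 1.84 in rrp6Δ, 1.89 in WT and 2.82 in rtt109Δ. SNR52, a small nucleolar RNA (snoRNA), was at 2.37, 2.66 and 3.41. All 4 were higher in rtt109Δ, by 0.34 to 0.58, and all 4 lower in rrp6Δ, by log2 differences from -0.59 to -0.04. Most snoRNA genes are transcribed by RNAPII and served as short noncoding genes for comparison. The 75 annotated as snoRNA had no dip in WT, with a median log2 of gene over flanks of -0.04. Their median differences from WT were 0.21 in rtt109Δ and -0.09 in rrp6Δ, so the rtt109Δ difference was like that of tRNA genes and the rrp6Δ difference smaller in size.

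Protein-coding genes that serve tRNA were compared with all ORFs, of which 9.57% were lower and 8.75% higher in rtt109Δ by more than 1.3-fold, and 1.82% lower and 0.709% higher in rrp6Δ. Of 17 RNAPIII subunit genes, 1 was lower and none higher in rtt109Δ by more than 1.3-fold, with a median of -0.07. Among 10 RNAPIII factor genes, TFC8, a TFIIIC subunit, was lower at -0.41, and TFC3, the TFIIIC subunit that binds box B, was higher at 0.53. TFC3 lies on chromosome I, which had the highest chromosome median over tRNA genes in rtt109Δ. Of 21 tRNA processing and export genes with a value, 6 (28.6%) were lower and 1 (4.76%) higher in rtt109Δ, against 9.57% and 8.75% of all ORFs. The higher one, POP5 at 0.41, also lies on chromosome I, and the part of the chromosome in these increases was not tested. POP4, a subunit of RNase P, had the largest difference, with 1.23 in rrp6Δ, 1.67 in WT and 0.864 in rtt109Δ. tRNA synthetases charge tRNAs with amino acids. Of the 20 with a value, 11 (55%) were higher in rtt109Δ and none lower, with a median of 0.40, against 8.75% higher and 9.57% lower of all ORFs. Their WT ratios were low, with a median of 0.747, and the median in rtt109Δ was 0.952. No list was compared with ORFs of a like WT ratio, so the part of WT level in these shares was not tested. DED81, the asparagine enzyme, was at 0.638 in rrp6Δ, 0.630 in WT and 1.03 in rtt109Δ. In rrp6Δ 2 processing genes, POP4 and THG1, were lower, and no gene of the other lists passed the limit.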

How the data were processed

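Tracks were 3, 1 per genotype, from 7 samples. The deposited values are ratios of IP to input that the authors computed in windows of 100 bp every 50 bp from 2 IP libraries per genotype and 1 common input. Fragments of 100 to 300 bp had been selected. The submitters' processing notes name sacCer3 (R64), FastQC, Bowtie2, SAMtools, deepTools and bedtools, with no versions. The study states scaling by total reads of each library for its browser views of RNAPII and names an earlier published procedure and MACS2. Whether these apply to the deposited tracks, how libraries were combined and how repeated reads were placed was not determined here. The tracks hold 228888 windows, and library depth is unknown.

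tRNA genes came from the RefSeq annotation of R64, and strand from systematic names. Window means carried no pseudocount and no filter on low values. Log2 ratios of means were called at 1.3-fold without a test. Backgrounds were all pairs of adjacent windows (genes), runs of 4 (flanks) and ORFs. Values were computed in Python 3.11.15 with pandas 2.3.3 and numpy 2.4.6, and the code was checked on simulated data.

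The annotation used gives no anticodon, amino acid or tRNA sequence, so the planned groups by amino acid and by anticodon copy number were replaced by families of symbols known to name the tRNA and by length. Named genes were those known by their symbol to be alone in their anticodon, the 5 highest and 5 lowest in WT, and the 5 largest increases and decreases per mutant. SUP4 and the tRNA genes nearest HMRA1 and STE6 were also named. Members, lists and rules were chosen with earlier results of these data known. Alternatives were other windows, scales, limits, pseudocounts and subsets of genes.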

Additional observations from a re-analysis of the deposited data

How the results depend on the processing

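No median over all tRNA genes or flanks changed sign under the alternatives that were run, apart from the downstream flank in rtt109Δ, whose interval included 0. No paired analysis was possible because the replicates of a genotype were merged into 1 track before deposit. Leaving out a replicate was not possible either. The alternatives by anticodon copy number and the sequence features were not run. No genome-wide share is given for the alternatives, so shares of genes or flanks under them cannot be set against a background. Of the results that answer a comparison, 112 values under alternatives stayed within the interval of the reported median or within 1.5 times the reported share, and 49 moved. The cause was not tested.

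With tracks divided by their means, gene medians were 0.683 in rrp6Δ, 0.876 in WT and 1.11 in rtt109Δ, and flank medians 1.51, 1.53 and 1.44. In rtt109Δ the log2 median over genes was then 0.32 with 44.3% higher, and that of the flanks -0.087. With flanks 200 to 400 bp away, flank medians were 1.67 in rrp6Δ, 1.76 in WT and 1.45 in rtt109Δ, and gene over flank was -0.999 in rrp6Δ and -0.23 in rtt109Δ. The flanks then differed from WT by -0.26 in rtt109Δ with 37.3% lower, and by -0.093 in rrp6Δ with 1.54% lower. With only flank windows outside annotated genes, flank medians were 2.03 in rrp6Δ, 2.01 in WT and 1.77 in rtt109Δ, and gene over flank was -0.89 in WT. With the nearest window for genes and the median window for flanks, gene medians were 0.766 in rrp6Δ, 1.03 in WT and 1.20 in rtt109Δ, the rtt109Δ flank was 1.55, and genes in rrp6Δ were at -0.42. The nearest window also turned the sign of SUF6 in rrp6Δ, to -0.39, and of SUP8 and YNCM0021C in rtt109Δ, to -0.03 and -0.23.

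At a limit of 1.5-fold, 6.82% of genes were higher and 5.34% of flanks lower in rtt109Δ, and 23.1% of genes and 0.382% of flanks lower in rrp6Δ. With a pseudocount of 0.5, genes were at 0.17 in rtt109Δ with 10.98% higher and at -0.24 in rrp6Δ with 20.8% lower, and 0.382% of flanks were lower in rrp6Δ. Among genes or flanks at or above the median level, genes were at 0.29 in rtt109Δ and -0.27 in rrp6Δ, and flanks in rtt109Δ at -0.30 with 38.9% lower, with 0% lower in rrp6Δ. Relative to their own flanks, genes were at 0.44 in rtt109Δ with 56.5% higher, and at -0.31 in rrp6Δ. Chosen after seeing the data, genes with 1 window had medians of 0.730 in rrp6Δ and 1.18 in rtt109Δ and a difference of -0.43 in rrp6Δ, genes with 2 windows one of -0.32, and the 181 genes with no missing window nearby a WT flank median of 1.74.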
